A study of Mus musculus with 2 samples.

Results

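The immunoglobulin heavy chain locus (Igh) was examined in the CTCF ChIP-seq map of double-negative (DN) thymocytes, T cell precursors with neither CD4 nor CD8 on their surface. Touching bins of the track were joined into regions, and every region with its centre between 114000000 and 117500000 on mm9 chromosome 12 was taken. This gave 206 regions of 53551 in the whole map and of 2215 on chromosome 12. The map comes from 1 CTCF library of CD4-CD8- thymocytes of Rag1-/- mice on the C57BL/6 background, aged 4 to 8 weeks, precipitated with an anti-CTCF antibody. An input library from the same kind of cells is labelled as its control, and 0 processed files of it were in use here. The Rag1 deletion is shared by both libraries and by all cells studied, and the labels do not state how many animals were pooled. No transcript was measured, so the labelled cell type could not be checked against marker genes.

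CTCF is a zinc-finger protein that binds DNA at insulators and stops cohesin as it extrudes chromatin loops. The Igh locus builds antibody heavy chains by joining a V, a D and a J segment. In B cell precursors D joins J before V joins DJ, and T cell precursors can join D to J but normally leave the V segments alone. Known CTCF-bound elements lie at the 3′ end of the locus, behind its 3′ enhancers, and between the D and V segments in the intergenic control region 1. Further CTCF sites are known throughout the V array, where loop extrusion brings V segments toward the D and J segments. Without RAG1 no segment can be cut, so the coordinates used here apply to an unrearranged locus.

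The order of the gene segments was read from the RefSeq gene table of the GRCm38 build, which gave names and neighbours only, since the track uses mm9. From low to high coordinates it runs from the constant gene Igha, for the IgA heavy chain, to Ighm, for the IgM heavy chain. Then come Ighj4 to Ighj1, the D segments from Ighd4-1 to Ighd3-1, and the V segments up to Ighv1-86. The table lists 8 constant genes, 4 J segments, 10 D segments with 10 D pseudogenes, and 120 V segments with 63 V pseudogenes. The next protein-coding genes are Tmem121 on the low side and Zfp386 on the high side. The protein-coding Adam6a and Adam6b lie among the outermost D entries, next to the V array.

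The interval was divided at approximate positions. The 3′ regulatory end and constant genes were taken as 114.4 to 114.7 Mb and the V array as 114.8 to 117.25 Mb. The stretch between them, 114.7 to 114.8 Mb, is called the D/J part. These borders are rounded, and J segments and some D segments may fall on the low side of 114.7 Mb. The track carries positions without heights, so a region was either listed or not, and its width was the only other measure. The depth behind a region is unknown, there was no replicate and no test between conditions, and all intervals below are exact and cover counting error only.

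CTCF regions were many in the V array, clustered at the low end of the 3′ and constant part, and a single pair in the D/J part as bordered here. The V array held 156 regions in 2.45 Mb, or 63.7 per Mb (Poisson 95% interval 54.1 to 74.5). The 3′ and constant part held 12 regions in 0.3 Mb, or 40 per Mb (20.7 to 69.9), and the D/J part held 2 in 0.1 Mb, or 20 per Mb (2.42 to 72.2), beside 21.7 per Mb over chromosomes 1 to 19. The D/J count depends on the rounded borders, and became 6 with the border to the V array 0.05 Mb higher and 4 with all borders 0.05 Mb lower or 0.05 Mb higher. The flank on the low side, from 114.0 to 114.4 Mb, held 30 regions, or 75 per Mb (50.6 to 107). The flank on the high side, from 117.25 to 117.5 Mb, held 6, or 24.0 per Mb (8.81 to 52.2). The ratio of the V array to the 3′ and constant part was 1.59 (95% interval 0.886 to 3.15) with touching bins. With regions joined within 1000 bp, the 3′ and constant part held 5 regions and the V array 137, and the ratio was 3.36 (1.40 to 10.5). Whether their densities differed thus turned on the joining. Against the D/J part the ratio was 3.18 (0.867 to 26.5), which the count of 2 leaves imprecise.

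**Figure D1:**
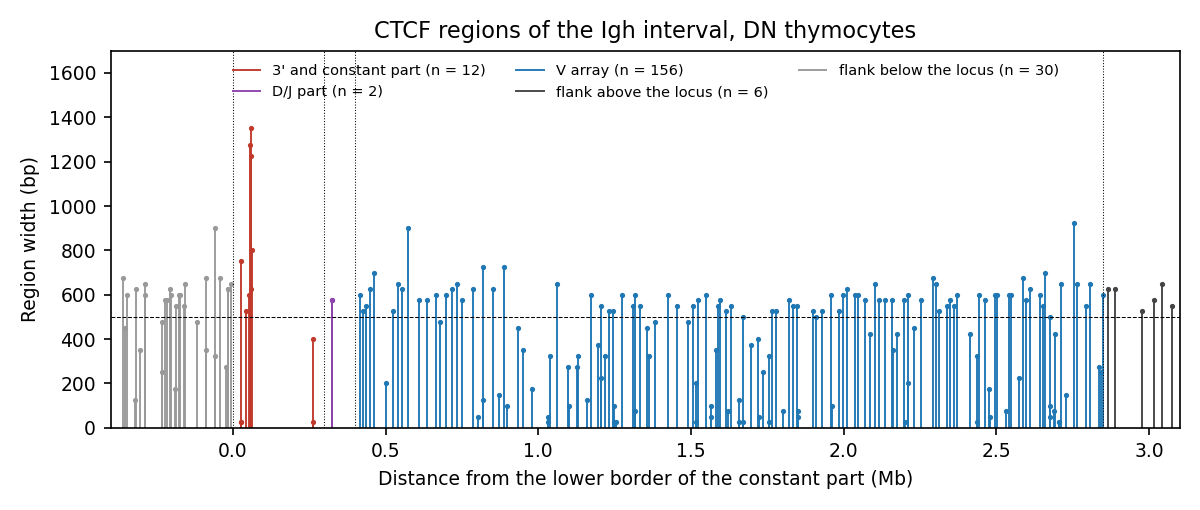
Every CTCF region of the interval as a line at its distance from the lower border of the constant part (x axis, Mb), with its width as the height (y axis, bp). Dotted lines mark the borders of the parts and the dashed line 500 bp; the tall red lines are the 3′ cluster, an empty stretch and the D/J pair follow, and 156 regions fill the V array.

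At the 3′ end, CTCF regions formed a compact cluster with the widest members of the interval. The lowest 3 regions, chr12:114425261-114425285, chr12:114425636-114426385 and chr12:114426636-114426660, measured 25, 750 and 25 bp and were separated by 350 and 250 bp. The narrow ones sit on either side of the wide one. A single region of 525 bp followed at chr12:114443686-114444210. The core of the cluster then began at 114454011 and ended at 114462885, 6 regions in 8.88 kb.

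The 6 core regions covered 66.2% of that span. The span ends at the outer edges of these same regions, so a high share is built in. The 2 regions beyond the long gap described below, cut likewise, covered 94.4% of theirs. Regions covered 2.54% of the whole 3′ and constant part and 0.837% of the spans of chromosomes 1 to 19. In order from low to high coordinates they measured 600 bp (114454011 to 114454610), 1275 bp (114455311 to 114456585), 1225 bp (114457936 to 114459160), 625 bp (114459311 to 114459935), 1350 bp (114460111 to 114461460) and 800 bp (114462086 to 114462885). The gaps between them were 700, 1350, 150, 175 and 625 bp. Every one of the 6 reached 500 bp, and 3 exceeded the widest region of the V array, 925 bp. Regions this wide were rare in the map. Only 114 of the 53548 regions on chromosomes 1 to 19 and X, 0.213%, measured 1200 bp or more, and 3 of them lay here. With bins joined only where they touched, this was the 1 place on those chromosomes with 3 such regions within 10 kb. The limits of 1200 bp and 10 kb were chosen after these widths were seen. A wide region can hold several binding sites too close to be separated, and its height was not recorded. Whether the input library was raised at these positions was not tested.

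Most of the rest of the 3′ and constant part was a stretch without CTCF regions. From 114462886 to 114662885, exactly 200 kb, no bin was listed. Gaps of this length or longer made up 4.18% of the gaps on chromosomes 1 to 19 (2186 of 52235), so an empty stretch of this size is not in itself rare. Whether repeats such as the switch regions before the constant genes could be mapped was not recorded in the track. Beyond the gap, 1 region of 400 bp (114662886 to 114663285) and a 25-bp piece 25 bp further on (114663311 to 114663335) were the last of this part. The gene table places Ighm as the last constant gene and Ighj4 as the first J segment. Their mm9 positions were not analysed here, so whether this region lies between them is not stated.

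**Figure D2:**
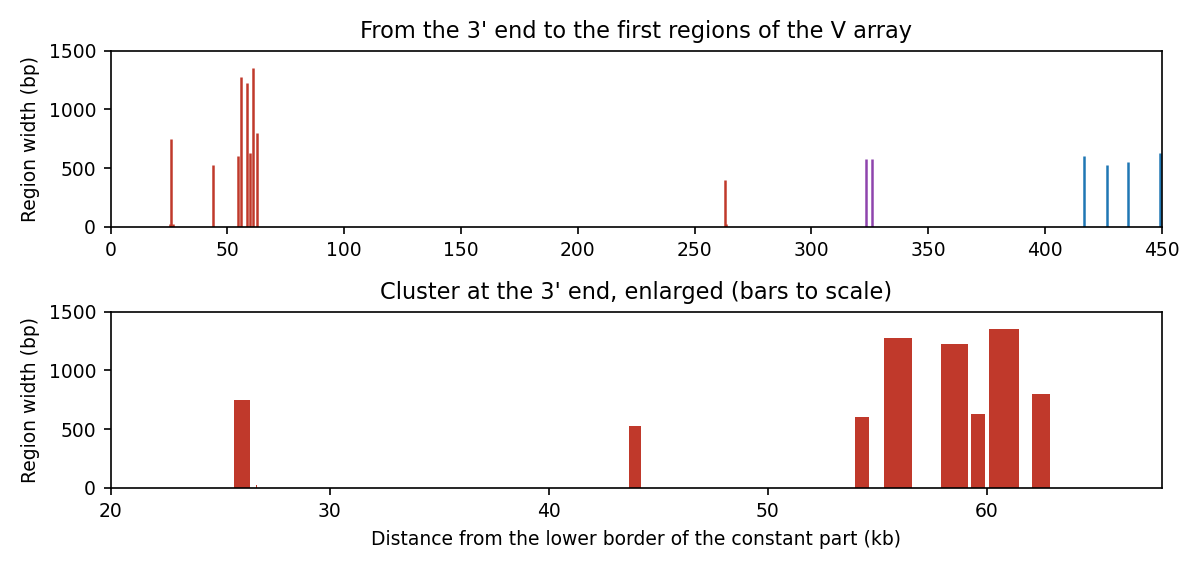
Region width (y axis, bp) against distance from the lower border of the constant part (x axis, kb), above for the low end of the locus up to the first V array regions and below for the 3′ cluster with bars drawn to scale. The cluster of 6 regions covers 66.2% of 8.88 kb, followed by 200 kb without a region; the purple lines are the D/J pair.

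In the D/J part the map held an isolated pair of equal width. Both regions measured 575 bp, the first at chr12:114723186-114723760 and the second at chr12:114725811-114726385, with 2050 bp between them. On the low side the next region was 59.9 kb away and on the high side 89.98 kb. The pair was therefore the whole of the CTCF signal listed between 114663335 and the start of the V array. The known intergenic control region 1 is also described as a pair of CTCF-bound elements between D and V. Its mm9 coordinates were not used, so identity with this pair was not tested. Gaps of at least the 89.98 kb that separated the pair from the V array made up 11.2% of those on chromosomes 1 to 19.

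Paired regions standing alone occurred elsewhere as well. With regions joined within 200 bp, 117 places on chromosomes 1 to 19 and X had 2 neighbouring regions of 500 bp or more within 5 kb and at least 50 kb free on both sides. The D/J pair was 1 of them and the only one in the Igh interval. These limits were set after the pair had been seen, and the count describes how common the arrangement is in this library.

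The V array was filled with CTCF regions from one end to the other. Its first region, 600 bp wide, lay at chr12:114816361-114816960, on the side of the D segments. Its last, also 600 bp, lay at chr12:117248961-117249560, less than 1 kb from the rounded border of 117.25 Mb. The longest stretch without a region was 52.1 kb, between 115381035 and 115433111. The next 4 were 48.3 kb before 116298086, 44.5 kb before 115825336, 40.7 kb before 116812511 and 38.0 kb before 116690686. On chromosomes 1 to 19, gaps over 50 kb made up 21.0% of all gaps and gaps over 100 kb 9.94%. In the V array 1 of 155 gaps exceeded 50 kb and 0 exceeded 100 kb. The longest of them, 52.1 kb, is shorter than either stretch beside the D/J pair. Long gaps were also few in the low-side flank, with 1 of 29 over 50 kb and 0 over 100 kb. In the Tcra/Tcrd window described below, 1 of 89 exceeded 50 kb, and it also exceeded 100 kb. In the Igk windows 6 of 12 exceeded 50 kb.

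The array was denser than most of the genome, but not denser than its low-side flank. Its density was 2.94 times that of chromosomes 1 to 19 outside the interval (95% interval 2.50 to 3.44) and 3.63 times that of the rest of chromosome 12 (3.07 to 4.28). Against the high-side flank the ratio was 2.65 (1.19 to 7.34). Against the low-side flank it was 0.849 (0.572 to 1.30). In the gene table the protein-coding genes next to Igha on that side are Tmem121, Tedc1 and Crip1.

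Spacing in the V array was even. To keep pieces of 1 site from counting as neighbours, regions within 1000 bp were joined, which left 137 regions. Their median gap was 15.0 kb with quartiles of 10.3 and 23.5 kb, against 20.4 kb with quartiles of 7.58 and 50.2 kb on chromosomes 1 to 19. The 10th and 90th percentiles were 6.14 and 31.1 kb in the V array, a 5.07-fold range, and 3.08 and 116 kb on chromosomes 1 to 19, a 37.9-fold range. Of the 136 gaps in the V array, 73.5% lay above 10 kb and did not exceed 40 kb, compared with 38.1% on chromosomes 1 to 19. Gaps from 1 to 10 kb made up 23.5% of those in the V array (Clopper-Pearson 95% interval 16.7 to 31.6%) and 31.1% on chromosomes 1 to 19, a share inside that interval.

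**Figure D3:**
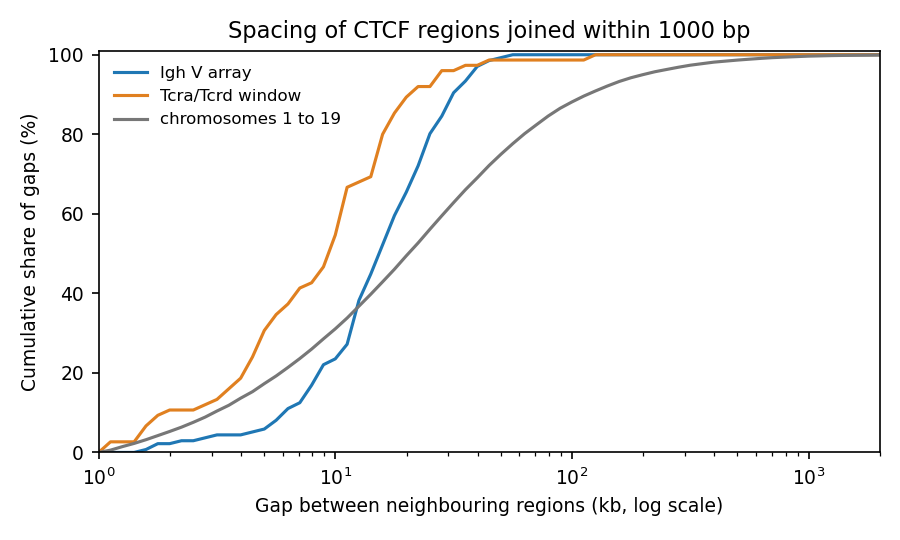
Cumulative share of gaps (y axis, %) up to a given length (x axis, kb, log scale) for the Igh V array (136 gaps), the Tcra/Tcrd window (75 gaps) and chromosomes 1 to 19 (43725 gaps), with regions joined within 1000 bp. The V array curve is the steepest, rising from 23.5% at 10 kb to over 99% at 50 kb.

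The evenness was measured by the SD of the gaps divided by their mean, a value left unchanged when all gaps are scaled alike. Joining within 1000 bp removes the shortest gaps and can lower this ratio, more so where regions are dense. The ratio was 0.582 over the V array and 2.52 over chromosomes 1 to 19. That second value pools regions of very different density, so single windows of 1 Mb were compared too. The windows at 115 to 116 Mb and 116 to 117 Mb lie wholly in the V array. They held 52 and 57 joined regions, and their ratios were 0.606 and 0.532. Among the 925 windows of chromosomes 1 to 19 and X with at least 20 joined regions the median was 1.10. The window at 116 to 117 Mb had the lowest value of all and that at 115 to 116 Mb ranked 4. Their longest gaps, 52.1 and 48.3 kb, ranked 10 and 3 from the shortest, against a median of 134.5 kb. The window at 114 to 115 Mb, which holds the low-side flank, the 3′ cluster, the D/J pair and the start of the V array, had 45 joined regions and a ratio of 1.60. These ranks are descriptions of 1 library, since windows are not replicates. A window with more regions has shorter gaps by construction, which bears on the longest gap and, through the joining, can bear on the ratio.

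The low ratios were also found with other joining distances and window borders. With windows moved by 0.5 Mb, the window from 115.5 to 116.5 Mb ranked 1 of 914 with 0.590. With touching bins only, the windows at 115 to 116 and 116 to 117 Mb ranked 3 and 2 of 1100. Among the 256 windows with at least 40 joined regions they ranked 2 and 1. It did depend on the narrower regions. Counting only regions of 500 bp or more, the window at 116 to 117 Mb ranked 8 of 376 with 0.753, and that at 115 to 116 Mb ranked 87 with 0.964. These settings were chosen after the data were seen.

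**Figure D4:**
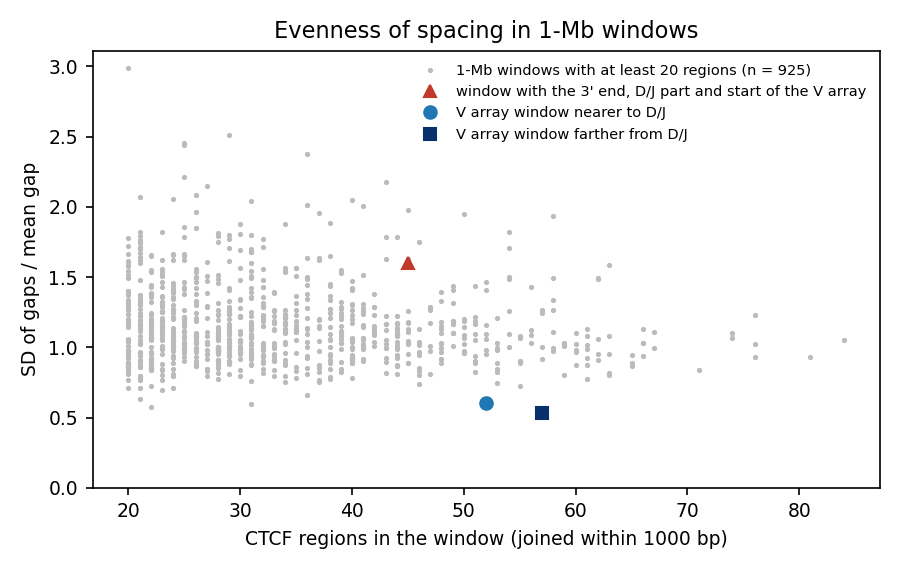
SD of gaps over mean gap (y axis) against the number of regions joined within 1000 bp (x axis) in 925 windows of 1 Mb with at least 20 regions (grey). The circle and the square are the windows wholly inside the V array, at 0.606 and 0.532, on the lower edge of the cloud; the triangle is the window with the 3′ end, at 1.60.

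With touching bins, broad regions, of 500 bp or more, made up a larger share in the V array than on chromosomes 1 to 19. The quartiles of width were 200, 525 and 600 bp, and 125, 425 and 600 bp on chromosomes 1 to 19. Regions of 500 bp or more numbered 87 of 156, or 55.8% (Clopper-Pearson 95% interval 47.6 to 63.7%), against 46.8% (46.3 to 47.2%) on chromosomes 1 to 19. The low-side flank had 20 of 30 and the high-side flank 6 of 6. Within the V array, the share was 45.8% at 115 to 116 Mb and 59.7% at 116 to 117 Mb. The median over 1-Mb windows with at least 20 regions was 47.2%. With regions joined within 200 bp, the share was 62.1% (53.6 to 70.2%) in the V array and 53.8% on chromosomes 1 to 19. Within 1000 bp it was 63.5% (54.9 to 71.6%) and 56.0%. These joined shares of chromosomes 1 to 19 lay inside the V array intervals. Of the 87 in the V array with touching bins, 83 measured 500 to 700 bp, with a mean of 585 bp ± 45.8 (SD over regions). This was close to the 590 bp ± 48.4 (590.3) of the 22663 such regions on chromosomes 1 to 19. The same limits of 500 and 700 bp bound both means, so part of this closeness is built in. Regions over 700 bp numbered 4 of 156 in the V array, beside 1777 of 52254 on chromosomes 1 to 19. The widest were 925 bp (117153536 to 117154460), 900 bp (114973661 to 114974560), 725 bp (115219686 to 115220410), 725 bp (115286036 to 115286760) and 700 bp (114863311 to 114864010). In the 3′ and constant part 5 of 12 regions exceeded 700 bp with touching bins. Which part had more of them turned on the joining. With regions joined within 200 bp each of these 2 parts had 4. Within 1000 bp the 3′ and constant part had 3 and the V array 7.

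Narrow regions in the V array mostly lay beside another region. Regions of 100 bp or less numbered 30, or 19.2% (13.4 to 26.3%), against 22.4% on chromosomes 1 to 19. Of the 30, 21 had another region within 200 bp, or 70%, against 48.5% on chromosomes 1 to 19. This was not particular to the Igh V array. In the Tcra/Tcrd window described below it was 11 of 15, or 73.3%, and in the Igk windows 2 of 2. The closest neighbours were separated by a single missing bin of 25 bp. There were 8 such gaps, and those of lowest coordinate lay between 115220410 and 115220436, 115717435 and 115717461, and 115917460 and 115917486. Joining within 200 bp left 140 regions and 10 narrow ones. The D/J part and both flanks held 0 regions of 100 bp or less.

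The width of the regions varied along the V array, while the counting intervals of their number overlapped throughout. In steps of 0.25 Mb from 114.8 Mb, the counts ran from 11 to 19, and the last step of 0.2 Mb held 18. With regions joined within 1000 bp they ran from 10 to 16, the last step included. The sparsest step was 115.3 to 115.55 Mb with 11 regions, or 44.0 per Mb (22.0 to 78.7). The densest was the last, 117.05 to 117.25 Mb, with 90 per Mb (53.3 to 142), and the intervals of these extremes overlapped. The share of regions of 500 bp or more was 91.7% (11 of 12, 61.5 to 99.8%) in the step next to the D segments, 114.8 to 115.05 Mb, and 85.7% (12 of 14, 57.2 to 98.2%) at 116.3 to 116.55 Mb. At 115.3 to 115.55 Mb it was 9.09% (1 of 11, 0.230 to 41.3%). The interval of that step did not overlap those of the other 2. The steps were picked as extremes of 10, which the intervals do not allow for.

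**Figure D5:**
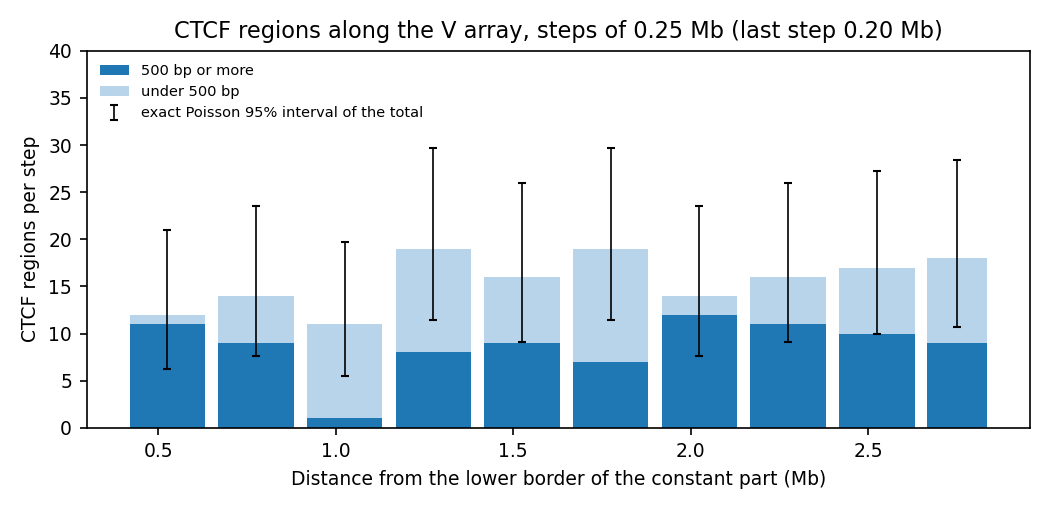
CTCF regions (y axis) in 10 steps along the V array (x axis, distance in Mb from the lower border of the constant part), split into regions of 500 bp or more (dark) and narrower ones (light). Whiskers are exact Poisson 95% intervals of the totals, which overlap throughout; the dark part falls to 1 region in the step at 115.3 to 115.55 Mb.

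The low share came from a stretch in which CTCF regions were present but narrow. Between 115286761 and 115460585, 174 kb, the V array held 7 regions of 25 to 450 bp and none of 500 bp or more. A single region of 650 bp followed, and then 109 kb (115461236 to 115570660) with 5 regions of 100 to 325 bp. The next longest such stretch was 95.5 kb (95.45), from 116070361 to 116165810, with 7 regions of 25 to 400 bp. Over the whole array the median gap between regions of 500 bp or more was 20.5 kb with quartiles of 12.3 and 33.9 kb, against 31.8 kb (31.75) with quartiles of 10.2 and 83.0 kb on chromosomes 1 to 19. Which V families lie at these stretches was not analysed in mm9. In the order of the gene table, the 61 V entries nearest the D segments include 20 of family 5 and 11 of family 2, the middle 61 include 45 of family 1, and the farthest 61 include 47 of family 1 and 14 of family 8.

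Parts of 2 other antigen receptor loci with large V arrays were set beside this one. Whole-Mb windows inside them were chosen from general knowledge of mm9 and not from an annotation. At 53 to 54 Mb on chromosome 14, within the Tcra/Tcrd locus of the T cell receptor alpha and delta chains, there were 90 regions in 1 Mb. The Igh V array had 0.707 times that density (95% interval 0.542 to 0.928). At 68 to 70 Mb on chromosome 6, within the Igk locus of the kappa light chain, there were 13 regions in 2 Mb, and the Igh V array had 9.80 times that density (5.56 to 18.8). That ratio holds for these windows only. Joined within 1000 bp they held 11 regions, while the neighbouring windows at 67 to 68 and 70 to 71 Mb held 26 and 21. How much of those neighbours belongs to the Igk locus was not checked. The share of regions of 500 bp or more was 72.2% (61.8 to 81.1%) in the Tcra/Tcrd window, above the 55.8% of the Igh V array with overlapping intervals, and 2 of 13 in the Igk windows. The ratio of the SD of gaps to their mean, with regions joined within 1000 bp, was 1.23 in the Tcra/Tcrd window, 1.42 in the Igk windows and 0.582 in the Igh V array. The Igk value rests on 10 gaps, and the 75 of the Tcra/Tcrd window include 1 of 117.7 kb. From the 10th to the 90th percentile, the Tcra/Tcrd gaps had a 9.50-fold range, beside 5.07-fold in the Igh V array. The next window on chromosome 14, at 54 to 55 Mb, held 61 joined regions with a ratio of 0.923, nearer to the 52 and 57 regions of the Igh windows in number. The window before, at 52 to 53 Mb, held 36 with a ratio of 0.660 and a longest gap of 47.9 kb.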

How the data were processed

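The authors deposited a browser track of bins listed as CTCF peaks, with start and end positions and no score. Bowtie and the build mm9 are named in the submitters' processing notes. How peaks were called, with which threshold, and whether the input entered are not given in the sources. Of the 825544 bins, 0 differed from 25 bp. Touching bins were joined, coordinates were made 1-based, and a region belonged to the part that held its centre. A gap is the number of bases between neighbouring regions of 1 part. Poisson, binomial (Clopper-Pearson) and conditional binomial intervals of ratios were exact at 95%. Density on chromosomes was per span from first to last region. Windows of 1 Mb began at whole Mb. With 1 library no test was possible. The joining code was tested on simulated bins, and a Poisson limit was checked against its known value. The binomial and ratio intervals were not tested in this way. The tools were pandas 2.3.3, numpy 2.4.6, matplotlib 3.10.9 and scipy 1.17.1 under Python 3.11.15.

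The interval, its borders, the 500-bp class and the comparisons were chosen with earlier results of these data known. Regions of the 3′ and constant part and of the D/J part were all to be named. In the V array the rule named the first and last region, the 5 widest, the 5 longest gaps, the 3 closest pairs and the extreme steps. No mm9 genome was used, so sequences and motifs were not analysed here.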

Additional observations from a re-analysis of the deposited data

How the results depend on the processing

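Alternatives gave 94 values for 12 results. Of these, 78 lay inside the counting interval (for counts and ranks, within 1.5 times) and 16 moved. Counts, widths and gaps have no direction to change. With regions over 100 bp only, the V array density of 63.7 per Mb became 51.4, the share of regions of 500 bp or more rose from 55.8 to 69.0%, and the median gap went from 13.9 kb (touching bins) to 16.5 kb. With regions of 500 bp or more only, the V array held 87 regions (35.5 per Mb), with a median width of 600.0 bp and a median gap of 20.5 kb, and the ratio to chromosomes 1 to 19 went from 2.94 to 3.51. Apart from the ratio, these values follow in part from dropping narrow regions. Joining within 1000 bp took the 3′ and constant part from 12 regions to 5, and the ratio of the V array to it from 1.59 (0.886 to 3.15) to 3.36 (1.40 to 10.5), an alternative chosen after the data were seen. The D/J count of 2 became 6 with the border to the V array 0.05 Mb higher, and 4 with all borders 0.05 Mb lower and also with all 0.05 Mb higher. With all borders 0.05 Mb lower, the high-side flank went from 6 to 10 regions. Thresholds on peak height were not run, since the track has no heights. No paired analysis was possible because only 1 library was used. How many weaker sites were left out cannot be said, as the depth is unknown.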
